A study of Bos taurus with 14 samples.

Results

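Embryonic genome activation (EGA) in dry cows was compared with EGA in culture. Of the 14 RNA-seq libraries of the study, 6 entered this comparison, and each was made from a pool of 5 bovine embryos at the 16-cell stage on Day 4. The 3 DRY libraries held embryos that passed from Day 2 to Day 4 in the oviduct of Holstein-Friesian cows after calving that were dried off immediately instead of being milked. The 3 IVC libraries held embryos that stayed in synthetic oviduct fluid with serum albumin under low oxygen over the same days. All embryos of both groups came from oocytes matured and fertilized in vitro with semen of a single bull, so both groups shared the maturation, the fertilization and the first cleavages in vitro. The study states that the embryos of a DRY pool were recovered from the same cow, so a DRY library would stand for a single recipient. The values of DRY replicate 3 did not vary independently of the other DRY libraries, as described below. The other libraries were 5 pools at the 4-cell stage on Day 2, before transfer, and 3 Day-4 pools from milked cows (LACT), and they are used only for context.

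In cattle the embryo lives on RNA stored in the oocyte until its own genome is switched on, with the major wave around the 8- to 16-cell stage. Up to this stage the embryo normally lies in oviduct fluid, which supplies amino acids, lipids and sugars. The mTOR kinase is a sensor of amino acids, energy and growth factors, which sits at the lysosome surface when amino acids are plentiful. Its complex mTORC1 drives protein synthesis, largely through the initiation of translation, and mitochondrial activity. Oxidative phosphorylation is the route by which mitochondria make ATP, with subunits from both the mitochondrial and the nuclear genome.

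DRY libraries held 28465110 to 40357379 counts on genes and IVC libraries 22711367 to 29625671. The smallest signal taken as detected, 3 counts, equalled 0.0807 to 0.145 CPM (normalized counts scaled by library size, after TMM over all 14 libraries). These limits reflect counting error alone, as several reads may stem from the same molecule. Of the 27607 genes of the table, 12143 to 14530 had no count in a given library. The gene identifiers were Ensembl IDs, and symbols were used for 25 of them, all from terms of energy regulation. Markers of oviduct epithelium, blood, cumulus and early embryo therefore could not be looked up, and the identity of the pools rests on their labels.

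The libraries of each group were not equally spaced. DRY replicate 3 lay between DRY replicates 1 and 2 for 97.5% of 8001 genes (those whose DRY mean reached 5 CPM), and within 5% of their mean for 83.2%. IVC replicate 1 lay between IVC replicates 2 and 3 for 98.6% of 8084 genes chosen likewise, and within 5% of their mean for 92.0%. For the other DRY and IVC libraries, 6.25% to 7.56% of genes lay within 5% of the mean of the remaining libraries of the group. A weighted sum of the other libraries left a residual spread of 0.627 (DRY replicate 3) and 0.301 (IVC replicate 1) in units of the Poisson counting error, where the counting error of an independent library alone gives about 1. The middle libraries thus differed from that sum by less than the sampling noise, and n is 2 independent libraries per group in the test, with DRY replicates 1 and 2 against IVC replicates 2 and 3. The values of the middle libraries are printed beside the others, and counts from a fit of all 9 Day-4 libraries are given beside each main count. That fit counts the middle libraries as independent, which understates the spread, so its FDRs read too low. The study counts 3 DRY cows, and no source states that the IVC pools came from separate cultures, so p-values measure the spread between these libraries, which may be technical.

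The transcriptomes of the groups lay a little further apart than the libraries within a group. On log2 CPM, DRY replicates 1 and 2 were 268 units of Euclidean distance apart and IVC replicates 2 and 3 were 210 apart. The 4 distances from a DRY to an IVC library were 273 to 284, on average 1.17 times the mean distance within groups. These 4 pairs share the same libraries, so their spread does not measure the error of this ratio. DRY replicates 1 and 2 thus lay nearly as far from each other as from the IVC libraries. Over 8850 genes with at least 10 counts in all 4 libraries, the median absolute log2 ratio was 0.81 between the DRY libraries, 0.70 between the IVC libraries and 0.59 between the group means. The last value compares means of 2 libraries and the others compare single libraries. Averaging narrows the spread, so the last value cannot be set directly against the others.

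Many genes were present in one library and nearly absent from another. Between DRY replicates 1 and 2, 753 genes had at least 5 CPM in one library and at most 3 counts in the other. IVC replicates 2 and 3 differed in this way for 359 genes, and a DRY and an IVC library for 667 to 799. The number of such genes was therefore about as high between the pools of DRY as between the groups. Only 42 genes were present by this measure in DRY replicates 1 and 2 with at most 3 counts in each of the 3 IVC libraries, and 113 genes showed the opposite. Of these, 16 and 60 passed the test described next. In bulk pools, fewer embryos or cells that express a gene and less RNA per cell cannot be told apart.

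**Figure D1:**
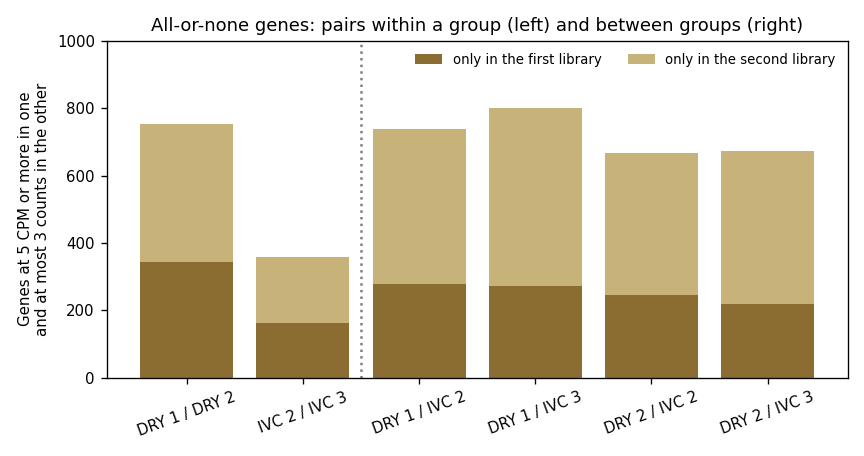
Number of genes (vertical axis) with at least 5 CPM in one library of a pair and at most 3 counts in the other, for the pairs within DRY and within IVC (left of the dotted line) and the 4 pairs between them (right). The pair of DRY libraries holds 753 such genes, within the range of 667 to 799 seen between groups, and the pair of IVC libraries holds 359.

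With edgeR's quasi-likelihood test, 89 of 12133 genes (0.734%) differed between DRY and IVC at a false discovery rate (FDR) under 0.05. Of these, 21 (0.173%) were more expressed in DRY and 68 (0.56%) were less expressed. At an unadjusted p under 0.05, 1240 genes (10.2%) passed. Leaving out a single library lowered the count to 34 (without DRY replicate 1), 44 (DRY replicate 2), 48 (IVC replicate 2) or 38 (IVC replicate 3). The fit of all 9 Day-4 libraries called 1668 of 12069 genes (13.8%), 718 more expressed in DRY (5.95%) and 950 less expressed (7.87%), and 87 of the 89 genes were among them. That count fell to 471 without IVC replicate 1 and to 458 without DRY replicate 3, the libraries at the mean. Regardless of any test, all 3 DRY libraries lay above all 3 IVC libraries for 1841 genes (15.2%) and below them for 2477 (20.4%), in a data set where the third library of a group rarely lies outside the other libraries.

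The genes that passed the test were nearly all present in one group and absent from the other. Of the 21 genes more expressed in DRY, 19 had at most 1 count in every IVC library, and their level in DRY had a median of 57.9 CPM over the 21. Of the 68 genes less expressed in DRY, 64 had at most 1 count in every DRY library, with a median level of 49.2 CPM in IVC over the 68. For 14 and 32 of them, respectively, both independent libraries of the low group held exactly 1 count. Single counts were frequent in the whole table, with 766 to 1493 genes at exactly 1 count per library against 136 to 416 at 2 counts. Only 1 of the 21 genes and 4 of the 68 had at least 10 counts in all 4 libraries. A fit restricted to the 8885 genes with at least 10 counts in all 4 libraries called 2, both less expressed in DRY, and 704 passed at an unadjusted p under 0.05. For genes expressed in all 4 libraries the fold changes were moderate. Of the 8850 such genes that entered the main test, 27.7% differed at least 2-fold between the group means.

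ENSBTAG00000048956 had 202, 350 and 259 CPM in DRY replicates 1 to 3 and 0, 0 and 0.0483 CPM in IVC. The DRY libraries held 5294 to 13018 of its counts and the IVC libraries together held 1, at least 2085-fold more in DRY (log2 fold change 13.35 ± 0.91 SE, edgeR FDR 7.85e-05). It was also at 3 counts or below in LACT, and on Day 2 it had 8.24 ± 8.31 CPM (SD, n = 5). ENSBTAG00000010666 had 165, 375 and 259 CPM in DRY and 0, 0.0400 and 0 CPM in IVC, at least 2041-fold more in DRY (edgeR FDR 7.85e-05). It was nearly silent in LACT and on Day 2 as well, so its reads came almost entirely from the DRY pools. The gene with the lowest FDR went the other way. ENSBTAG00000013848 had 468, 471 and 514 CPM in IVC and 0.0381, 0 and 0 CPM in DRY, at least 5049-fold less in DRY (log2 fold change -14.53 ± 0.80 SE, edgeR FDR 2.98e-05), and was at 3 counts or below in each LACT library. The sources used here give these IDs no symbol, and their roles are not stated.

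The genes that passed were compared with LACT and with the embryos before transfer. Of the 21 genes more expressed in DRY, 13 had at least 1 CPM in both independent LACT libraries and 6 had at most 3 counts in all 3. Of the 68 less expressed in DRY, 44 were present in LACT and 18 were not. The Day-2 mean reached 1 CPM for 8 of the 21 and for 32 of the 68. It fell between the DRY and IVC means for 71.4% of the genes more expressed in DRY and for 72.1% of those less expressed, against 16.1% of all genes tested. A gene near 0 in one group leaves little room below it, so such genes fall between by construction. Among the 718 and 950 genes of the 9-library fit, the share between was 32.2% and 41.2%. The share with a Day-2 level above both groups was 39.6% of the 718, near the 37.5% of all genes tested, and 18.7% of the 950.

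The 10 genes of the mTOR pathway described here all had a higher mean in DRY, and none passed the adjusted test. Their log2 fold changes ran from 0.70 to 11.22 (median 2.36), against -0.06 over all genes tested, and 7 of the 10 passed at an unadjusted p under 0.05, against 3.75% of all genes in this direction. All 10 had 3 DRY libraries above 3 IVC libraries, against the 15.2% given above, and the 9-library fit called 9, against 5.95% of all genes in this direction. The study picked these genes because they were higher in DRY in these same samples, so their shared direction is not independent evidence. The same holds for the genes of oxidative phosphorylation and translation initiation described after them.

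The first of them sense amino acids. SESN2 encodes Sestrin2, a leucine sensor that restrains mTORC1 when leucine is scarce. It had 45.0, 7.83 and 24.0 CPM in DRY replicates 1 to 3 and 2.65, 1.24 and 4.49 CPM in IVC replicates 1 to 3. The DRY libraries were all above the IVC libraries and also spread widely among themselves, with a log2 fold change of 3.23 ± 1.26 SE (edgeR FDR 0.443) that ran from 1.47 without DRY replicate 1 to 4.43 without IVC replicate 3. SLC38A9, an amino acid transporter of the lysosome membrane that reports arginine to mTORC1, had 8.84, 32.7 and 20.6 CPM in DRY against 6.26, 7.72 and 5.70 CPM in IVC. Its lowest DRY library was close to its highest IVC library, and the log2 fold change of 1.64 became 0.42 without DRY replicate 2 and 2.30 without DRY replicate 1. It was the one gene of the 10 that the 9-library fit did not call (edgeR FDR 0.0606, and 0.0170 to 0.988 over all alternatives).

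The Rag GTPases and the Ragulator complex bring mTORC1 to the lysosome. LAMTOR4, a subunit of Ragulator, had 25.4, 203 and 119 CPM in DRY against 0, 0.0400 and 0.0483 CPM in IVC, which was a single count in each of IVC replicates 2 and 3. The difference was at least 864-fold (log2 fold change 11.22 ± 2.53 SE), with an FDR of 0.216 by edgeR, and DRY replicates 1 and 2 were themselves far apart. In LACT it was also split, with 0.221 CPM in replicate 1 and 10.98 CPM in replicate 2, and on Day 2 it had 1.58 ± 1.76 CPM (SD, n = 5). RRAGB, a Rag GTPase, had 57.9, 13.05 and 31.9 CPM in DRY and 2.73, 0.560 and 5.60 CPM in IVC (log2 fold change 3.55 ± 1.23 SE, edgeR FDR 0.371). With 1 library left out the log2 fold change ran from 2.11 (DRY replicate 1) to 6.0004 (IVC replicate 3). Over the 5 Day-2 libraries it had a single count, and counts of exactly 1 were in excess throughout the table. RRAGD, a partner in the Rag dimer, had 26.8, 19.7 and 20.7 CPM in DRY and 2.97, 0.920 and 5.60 CPM in IVC, with a log2 fold change of 2.07 without IVC replicate 2 and 4.68 without IVC replicate 3, whereas its Day-2 mean was 104 ± 77.4 CPM (SD, n = 5).

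Other members act on the inputs of mTORC1. MIOS, a subunit of the GATOR2 complex that relays amino acid supply, had 62.5, 56.5 and 53.3 CPM in DRY against 21.6, 21.0 and 24.7 CPM in IVC. Both groups were tight, and the log2 fold change was 1.40 ± 0.61 SE (edgeR FDR 0.480). TBC1D7, a subunit of the TSC complex that inhibits mTORC1, had 28.8, 25.1 and 24.1 CPM in DRY against 4.51, 4.12 and 5.45 CPM in IVC (log2 fold change 2.51 ± 0.88 SE, edgeR FDR 0.375). AKT1S1, also called PRAS40, an inhibitor bound to mTORC1 itself, had 31.5, 63.7 and 44.8 CPM in DRY and 9.74, 5.28 and 15.6 CPM in IVC, with a log2 fold change of 1.62 without DRY replicate 2 and 3.21 without IVC replicate 3. Negative regulators of mTORC1 (SESN2, TBC1D7 and AKT1S1) and parts of its activating machinery (LAMTOR4, RRAGB, RRAGD and MIOS) thus had higher means side by side.

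The remaining genes of the pathway differed less. TTI1, part of a complex that stabilizes mTOR and related kinases, had 34.0, 32.5 and 29.8 CPM in DRY and 16.1, 19.2 and 15.0 CPM in IVC. RICTOR, the defining subunit of the second mTOR complex, mTORC2, had 199, 149 and 155 CPM in DRY and 102, 109 and 108 CPM in IVC, with the smallest log2 fold change of the 10 genes, 0.70 ± 0.39 SE. Of the 10 genes, 5 had a Day-2 mean above both groups and 3 (TTI1, RICTOR and RRAGB) below both.

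**Figure D2:**
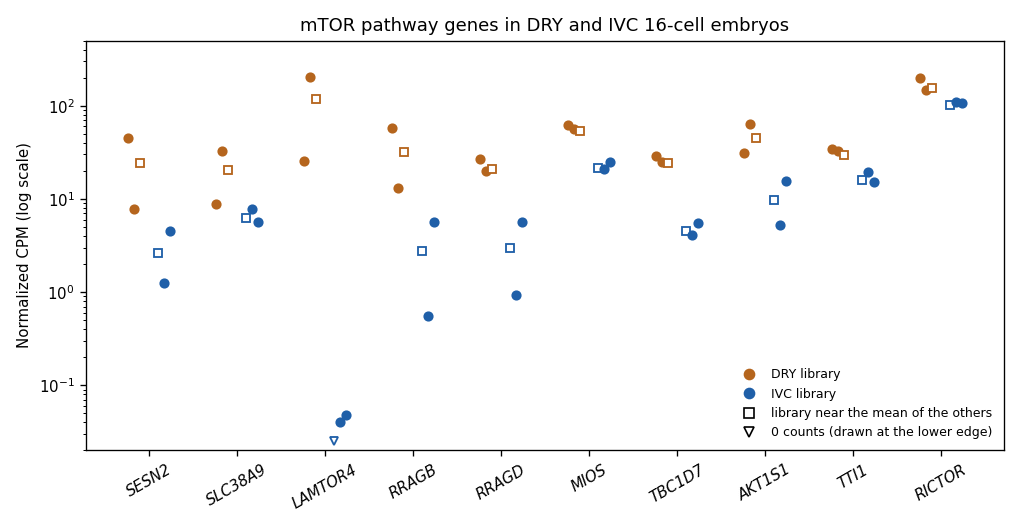
Normalized CPM on a log axis for 10 mTOR pathway genes in each DRY (brown) and IVC (blue) library, with open squares for DRY replicate 3 and IVC replicate 1, which lie near the mean of the others. The DRY libraries lie above the IVC libraries for all 10 genes, narrowly for SLC38A9, and LAMTOR4 has at most 1 count in every IVC library.

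The 9 genes of oxidative phosphorylation also had higher means in DRY, by less. Their median log2 fold change was 0.59, from 0.20 to 1.15, and none passed the adjusted test or reached an unadjusted p under 0.05. The lowest FDR was 0.501 by edgeR, the 9-library fit called 3 (COX3, CYTB and COX11), against 5.95% of all genes in this direction, and 6 of the 9 did not overlap between the groups, against 15.2%. The subunits encoded in the mitochondrial genome had a median log2 fold change of 0.55 over 5 genes and those encoded in the nucleus 0.62 over 4.

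The 5 mitochondrial genes together took 6.82%, 7.02% and 6.85% of all counts in DRY replicates 1 to 3 and 4.82%, 4.90% and 4.70% in IVC replicates 1 to 3. The groups were well apart on this share, and LACT, with 3.92% to 4.69%, lay below both. The study picked these 5 genes for a difference between Day-4 groups, so the share does not stand for mitochondrial transcripts as a whole. On Day 2 the share was 0.906% to 2.57%. COX3, a core subunit of complex IV, had 35587, 30616 and 29593 CPM in DRY and 20988, 21610 and 22858 CPM in IVC (log2 fold change 0.59 ± 0.27 SE, edgeR FDR 0.501). CYTB, the cytochrome b of complex III, had 26631, 27958 and 24613 CPM in DRY and 17746, 20060 and 17622 CPM in IVC (log2 fold change 0.55 ± 0.28 SE). ATP8, of the ATP synthase, had 2870, 2385 and 2346 CPM in DRY and 1620, 2062 and 1396 CPM in IVC. The complex I subunits were closer. ND6 overlapped between the groups, with 10095 CPM in its lowest DRY library and 10248 CPM in its highest IVC library, and for ND4L these values were 4080 and 4074 CPM.

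Among the nuclear genes COX11, a copper chaperone needed to assemble complex IV, had 49.4, 60.8 and 50.1 CPM in DRY and 23.2, 32.8 and 17.2 CPM in IVC (log2 fold change 1.15 ± 0.65 SE, edgeR FDR 0.594). SDHD, the membrane anchor of complex II, had 114, 81.4 and 86.9 CPM in DRY and 59.0, 74.5 and 51.5 CPM in IVC, so its groups came near each other without overlap. ATP6V0A2, a subunit of the proton pump of endosomes and the Golgi rather than of the respiratory chain, overlapped between the groups, with a log2 fold change of 0.59 ± 0.72 SE. ATP5MF, of the ATP synthase, overlapped as well, with 109, 87.8 and 87.9 CPM in DRY and 81.3, 101 and 71.9 CPM in IVC. Its log2 fold change of 0.20 ± 0.46 SE became -0.01 without IVC replicate 3. All 9 genes had a Day-2 mean below both groups.

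The 6 genes of translation initiation all had lower means in DRY. Their log2 fold changes ran from -1.11 to -0.81 with a median of -1.04. None passed the adjusted test (lowest edgeR FDR 0.455), 2 had an unadjusted p under 0.05, against 6.47% of all genes in this direction, and the 9-library fit called 4, against 7.87%. The 3 DRY libraries lay below the 3 IVC libraries for all 6, against 20.4% of all genes tested.

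The factor eIF2 carries the initiator tRNA to the ribosome and eIF3 holds the preinitiation complex together. EIF2S1, the subunit of eIF2 whose phosphorylation slows translation under stress, had 76.9, 96.5 and 78.9 CPM in DRY and 155, 196 and 135 CPM in IVC. EIF3F, a subunit of eIF3, had 75.1, 74.5 and 67.2 CPM in DRY and 146, 194 and 118 CPM in IVC (log2 fold change -1.05 ± 0.44 SE, edgeR FDR 0.461). EIF3E had 205, 179 and 172 CPM in DRY and 319, 410 and 272 CPM in IVC, with the smallest difference of the 6. EIF3B, a scaffold subunit, had 62.7, 69.1 and 59.6 CPM in DRY and 131, 215 and 71.7 CPM in IVC. The IVC libraries of EIF3B were far apart, and IVC replicate 3 lay just above the DRY libraries. Its log2 fold change of -1.11 became -0.10 without IVC replicate 2 and -1.67 without IVC replicate 3. EIF3J, a loosely attached subunit, had 51.7, 130 and 86.9 CPM in DRY and 177, 211 and 166 CPM in IVC, and its log2 fold change of -1.04 became -0.52 without DRY replicate 1 and -1.84 without DRY replicate 2. EIF3CL is a near copy of another eIF3 gene, and its 68.2, 128 and 91.7 CPM in DRY against 197, 247 and 173 CPM in IVC may include reads of that gene. EIF3E was the single gene of the 6 whose Day-2 mean, 257 ± 87.4 CPM (SD, n = 5), lay between the groups, and the others were below both.

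**Figure D3:**
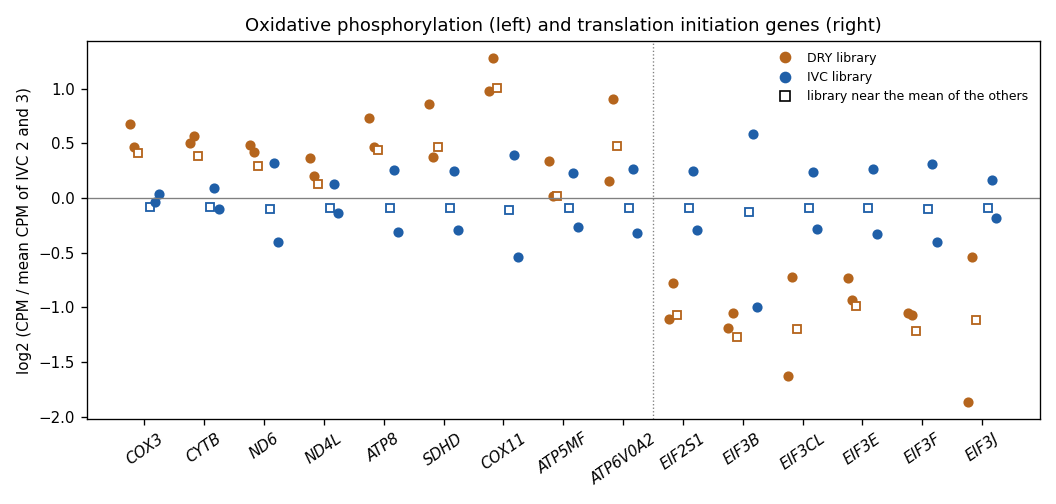
log2 ratio of the CPM of each library to the mean CPM of IVC replicates 2 and 3, for 9 genes of oxidative phosphorylation (left of the dotted line) and 6 of translation initiation (right), with DRY in brown, IVC in blue and open squares for DRY replicate 3 and IVC replicate 1. The DRY libraries lie above the IVC libraries for 6 of the 9 genes on the left and below them for all 6 on the right, where EIF3B nearly touches.

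The study lists 317 genes by Ensembl ID under 23 terms that change between Day 2 and Day 4 without a difference between the Day-4 groups, and 315 were tested. Since they were chosen for the lack of such a difference in these samples, a low count is built in. None was called by edgeR in the main test (0.734% of all genes), 4 had an unadjusted p under 0.05 (10.2%), and the 9-library fit called 4 higher (5.95%) and 5 lower in DRY (7.87%). The median log2 fold changes of the 23 lists ran from -0.38 for the lysosome to 0.30 for autophagy. The 20 genes of oxidative phosphorylation in this class had a median of -0.23, with 7 higher and 13 lower, and the 20 genes of mTOR signalling a median of 0.25, with 12 higher and 8 lower. The 9 genes of the eIF3 complex had a median of -0.35, with 7 lower, and the 20 ribosomal genes a median of -0.26, with 16 lower. Some of these lists are shortened in the source, so the values cover the listed genes only.

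Other lists were chosen by the study for a difference between Day-4 groups, and their direction is therefore given by the choice. The 9 genes of fatty acid metabolism were the furthest apart. Their summed level was 129, 68.9 and 87.7 CPM in DRY replicates 1 to 3 and 451, 399 and 606 CPM in IVC replicates 1 to 3. All IVC sums were more than 3 times any DRY sum, and LACT lay between with 236 to 265 CPM. A single gene of the 9 gave a large part of the IVC sums. Its mean was 167 CPM in IVC, 11.4 CPM in LACT and 0.0191 CPM in DRY (edgeR FDR 0.488). On Day 2 the 9 genes summed to 155 to 326 CPM. The median log2 fold change was -3.09, 6 of the 9 had an unadjusted p under 0.05 (6.47% of all genes in this direction), and the 9-library fit called 8 (7.87%). One of them, ENSBTAG00000020927, passed the main test, and it was the only gene of any term list to do so. It had 0.0381, 0.0269 and 0 CPM in DRY and 36.8, 65.9 and 16.2 CPM in IVC, at least 421-fold less in DRY (log2 fold change -10.13 ± 1.32 SE, edgeR FDR 0.00432). Without DRY replicate 1, DRY replicate 2 or IVC replicate 2 its FDR was 0.0664, 0.0637 and 0.0809, and with the Day-2 libraries added it was 0.125, the highest of the alternatives (lowest 8.62e-25). It was named after its values were seen, and its levels in LACT were 18.6 to 19.9 CPM.

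The 14 nucleosome genes of the list for higher expression in DRY summed to 3789, 2112 and 2629 CPM in DRY and 1424, 1711 and 1324 CPM in IVC. Nucleosome genes encode the histones around which DNA is wound, and DRY replicate 1 was the highest library. A single gene of the 14 made up most of these sums, with a mean of 2438 CPM in DRY and 1389 CPM in IVC and the smallest log2 fold change of the list, 0.83. The median log2 fold change was 2.40 and none passed the adjusted test, while the 9-library fit called 7 (5.95% of all genes in this direction) and 12 did not overlap between the groups (15.2%). Histone genes are near-identical copies, so reads may be split between them in ways the counting did not resolve. A second list of 8 nucleosome genes, higher in both oviduct groups, had a median of 2.53, with 167 to 185 CPM summed in DRY and 55.9 to 89.3 CPM in IVC. The 13 genes of the ciliary basal body, the anchor of cilia that is built like a centriole, summed to 323, 342 and 303 CPM in DRY and 153, 186 and 142 CPM in IVC. Their Day-2 sum was 1119 to 1556 CPM, above every library of either group, and the 9-library fit called 7 (5.95% of all genes in this direction).

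A list of lower expression in DRY held 18 ribosomal protein genes, whose log2 fold changes had a median of -0.80. Their sum was 6262, 5456 and 5252 CPM in DRY and 9448, 11111 and 9006 CPM in IVC, with the groups well apart. On Day 2 the same genes summed to 452 to 824 CPM, so both groups stood far above the stage before activation. Of the 18, none passed the adjusted test, 8 had an unadjusted p under 0.05 (6.47% of all genes in this direction), 14 were called by the 9-library fit (7.87%) and 17 did not overlap (20.4%). The 7 genes listed under extracellular exosome had a median of -0.92, and their sum in IVC ranged from 1573 to 3510 CPM, a wider spread than the 1087 to 1258 CPM of DRY. The 16 endosome genes had a median of -0.91 and the 19 Golgi membrane genes one of -0.78, with no member of either list at an unadjusted p under 0.05. The 5 genes of the TCA cycle, which feeds the respiratory chain, had a median of 0.40, and their sums of 298 to 455 CPM in DRY and 252 to 287 CPM in IVC came close to each other.

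**Figure D4:**
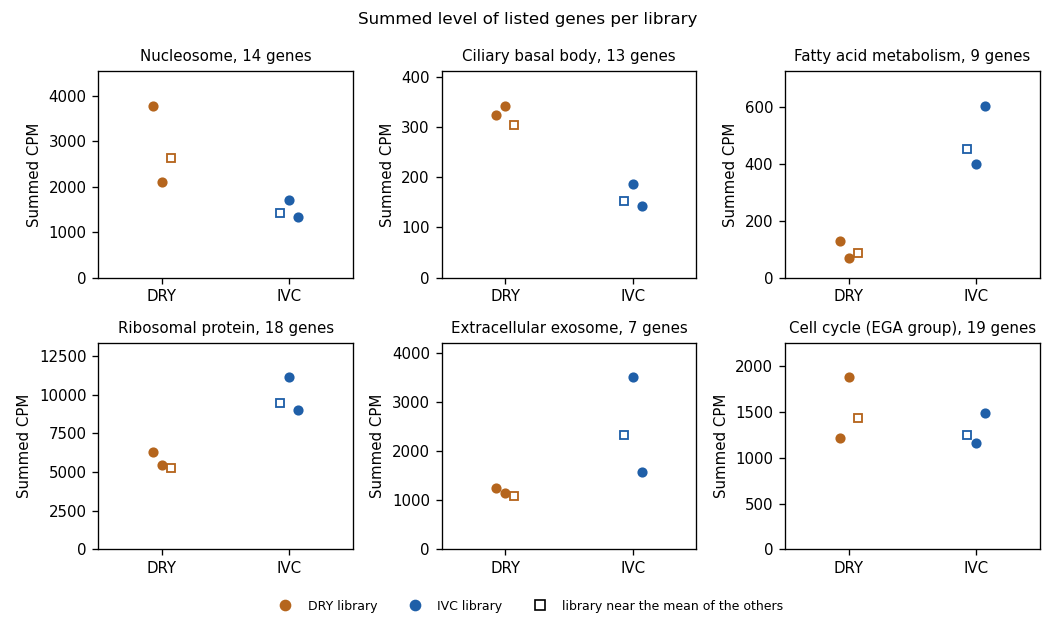
Summed CPM per library (vertical axes, starting at 0) for 6 lists of genes in DRY (brown) and IVC (blue), with open squares for DRY replicate 3 and IVC replicate 1. The first 5 lists were chosen by the study for a difference between Day-4 groups and do not overlap, and the 19 cell cycle genes, chosen for a change from Day 2 without such a difference, overlap, with sums of 1212 to 1877 CPM in DRY and 1160 to 1490 CPM in IVC.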

How the data were processed

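RNA-seq counts of 14 libraries (5 Day 2, 3 each of IVC, DRY and LACT on Day 4) were used as deposited by the authors: whole-number counts of reads per Ensembl gene, not normalized, made from 100 bp single-end reads of NuGEN libraries enriched for RNA other than rRNA during cDNA synthesis, using Trimmomatic, STAR 2.7.0b and featureCounts (Subread 2.0.3), per the labels. The labels call the molecule polyA RNA, while the protocol states that no polyA enrichment was done, which can affect the levels of histone genes, whose mRNAs mostly lack polyA tails. Strand setting and annotation release are not given in the sources used here. Groups came from the labels. Genes reaching 1 CPM in 2 or more libraries entered the test with edgeR 4.0.16 (robust quasi-likelihood, TMM, Benjamini-Hochberg FDR under 0.05) in R 4.3.3, on DRY 1 and 2, IVC 2 and 3 and LACT 1 and 2, 1 coefficient per group, with LACT adding only to the estimate of the spread. The fit of all 9 Day-4 libraries kept genes reaching 1 CPM in 3 or more. Fold changes are log2, DRY over IVC. A fold against a group at or under 3 counts per library was computed against the mean CPM of 3 counts in its independent libraries and is a lower bound. SD are over 2 libraries unless n is given. SE were back-calculated as the absolute log2 fold change divided by the square root of the test's F statistic. They thus depend on the fold change observed and are rough for genes near 0 in a group. DESeq2 1.42.0 and other settings were alternatives. The setting with all 3 LACT libraries was chosen after seeing the data.

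Members and lists were chosen with earlier results of these data known. Genes named were 25 with a symbol in the study (a further one is not reported here), and by ID those with the lowest FDR without overlap, at most 2 in each direction, the second lower one being the term-list gene that passed. The planned lists and cell type markers by symbol were not applied, for want of a table linking the IDs to symbols, and no sequences were used. On simulated data with 2 libraries per group and 11471 genes, the test called 14 of 100 genes changed 4-fold (95 tested), 47 of 100 changed 32-fold (94 tested) and 9 unchanged genes. In this single run the unchanged genes were a larger share of the calls than an FDR under 0.05 allows on average. No pairing by replicate number was seen: the correlations of same-numbered deviations were 0.00, -0.04 and 0.05. Only the libraries numbered 2 (-0.04) could show one, as the other pairs each hold a library at the mean. A pairing is therefore not excluded.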

Additional observations from a re-analysis of the deposited data

Results flagged for a closer look

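In groups of 5 libraries, the Day-2 levels of 29 named genes were searched for a single library far from the others. ENSBTAG00000043561 was not part of this search. The rule was met by 3 genes. All 3 had under 1 CPM in every Day-2 library, where small counts can set a library apart, so their number is not read against chance. RRAGB had 0.0312 CPM in Day-2 replicate 3, a single count, and 0 in the others. ENSBTAG00000010666 had 0.156 CPM in Day-2 replicate 3 and 0 to 0.0358 CPM in the others. ENSBTAG00000020927 had 0.759 CPM in Day-2 replicate 2 and 0 to 0.107 CPM in the others. The DRY and IVC groups, of 3 libraries, are too small for this search.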

How the results depend on the processing

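The main count of 89 genes (21 higher and 68 lower in DRY) stayed within 1.5 times with DESeq2 size factors (89), DRY and IVC only (132), the Day-2 libraries added (80, of which 45 were among the 89), the 10 genes of highest counts left out (87) and all 3 LACT libraries (114). It moved with no filter (587, 212 higher and 375 lower), with at least 10 counts in every DRY and IVC library (2, 0 higher and 2 lower), with the DESeq2 Wald test (689, 230 and 459), with all 9 Day-4 libraries (1668, 718 and 950), with the likelihood ratio test on these 9 (2515, 1057 and 1458) and at an FDR under 0.01 (46, 13 and 33). Leaving out 1 library gave 34 to 48 genes, 8 to 24 higher and 20 to 40 lower. In the 9-library fit the count was 471 (114 higher, 357 lower) without IVC replicate 1, 1116 (364, 752) without IVC replicate 2, 1467 (495, 972) without IVC replicate 3, 1718 (777, 941) without DRY replicate 1, 1248 (598, 650) without DRY replicate 2 and 458 (188, 270) without DRY replicate 3. The replicate number as a block was fitted on the 9 libraries, since the DRY and IVC libraries of the main test share only number 2, and gave 935 genes, 378 higher and 557 lower. No pairing by number was seen, with 1 of 3 DRY libraries closest to its own number. Only the libraries numbered 2 could show one, as the other pairs each hold a library at the mean. Among the 25 energy genes, calls rose from 0 to 1 (no filter, and DRY and IVC only), 3 (DESeq2 Wald test), 16 (9 libraries), 18 (likelihood ratio test) and 9 (9 libraries with replicate block), and in the 9-library fit to 3, 10 and 12 without IVC replicate 1, 2 or 3 and 10, 11 and 2 without DRY replicate 1, 2 or 3. The log2 fold change of ATP5MF ran from -0.0083 to 0.47 with 1 library left out, and reversed without IVC replicate 3, also in the 9-library fit (-0.034). The Day-2 level of genes called in the 9-library fit was above both groups for 39.6% and between them for 32.2% of those higher in DRY, and above for 18.7%, between for 41.2% and below for 40.1% of those lower, against 37.5%, 16.1% and 46.4% of all genes tested. The distance ratio was 1.13 after variance stabilization. The cause of these moves was not tested, apart from the genes and libraries that a setting itself removes. With 2 independent libraries per group the median SE of a log2 fold change, back-calculated from the test statistic, was 1.07. It depends on the fold change observed, so it is only a rough guide to the change that could be resolved.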

Other observations

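Exact single counts were more frequent than counts of 2 in every one of the 14 libraries. The ratio of genes at 1 count to genes at 2 counts was 6.94 and 8.34 in DRY replicates 1 and 2, 2.54 in DRY replicate 3 and 2.37 to 3.27 in IVC. In Day-2 replicates 1 and 5 it was 11.8 and 13.1, and in the other Day-2 libraries 2.59 to 2.84. Of the 280 genes with exactly 1 count in both DRY replicates 1 and 2, DRY replicate 3 had 0 counts for 231, and of the 382 such genes in IVC replicates 2 and 3, IVC replicate 1 had 0 for 333.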
